A study of Mus musculus with 6 samples.

Results

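Toll-like receptors depend on a small set of partners to reach the right membrane and to pass a signal on, and 10 of these partner genes were followed in the cervical spinal cord of mice with an imiquimod-induced, psoriasis-like dermatitis. The genes were taken by name, whatever their values. They were the chaperone Unc93b1, the co-receptor Cd14, the adaptors Myd88 and Ticam1, the kinases Irak1, Irak2, Irak3 and Irak4, and the ubiquitin ligases Traf3 and Traf6. All 10 were found among the 54532 genes with deposited values, and all 10 were among the 16513 tested. RNA was sequenced from 6 C57BL/6 mice, 1 library per mouse. In 3 mice, 50 mg of a cream with 5% imiquimod, an agonist of Tlr7, was spread on the shaved nape daily for 2 days. The other 3 mice received 50 mg of vehicle cream on the same schedule. Neither the age nor the sex of the mice is stated in the labels. The RNA came from whole cervical cord, so neurons, glia, vessels and blood cells are mixed in each value, and more cells of a type cannot be told apart from more RNA per cell.

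Toll-like receptors recognise microbial molecules, and some of them recognise nucleic acids inside endosomes. Unc93b1 carries the nucleic acid receptors, Tlr7 among them, from the endoplasmic reticulum to endosomes. Most receptors then recruit Myd88, which assembles Irak4, Irak1 and Irak2 into a signalling complex that acts through Traf6 towards NF-kB. Tlr3, and Tlr4 from endosomes, use Ticam1 (also called TRIF), which acts through Traf3 towards interferon genes and through Traf6 towards NF-kB. In the cord, microglia are the best known carriers of this machinery, and infiltrating monocytes and macrophages carry it too.

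Myd88, Unc93b1 and Irak4 were higher in the imiquimod cords, and the other 7 genes did not pass the test. Thus 3 of 10 were called higher, where 8.74% of all genes tested were, and 0 of 10 were called lower, where 5.34% of all genes were (14.1% in either direction, limma with Benjamini-Hochberg adjustment over all genes tested, threshold 0.05). Higher genes made up 62.1% of all calls, or 50.9% with quantile normalization, and with that scaling the same 3 of the 10 genes were called. Whatever the p-value, 8 of the 10 log2 changes were above 0, against 49.1% of all genes, and 2 were below. The median log2 change of the 10 genes was 0.29, beside -0.01 over all genes tested. In 5 of the 10, every imiquimod library lay above every vehicle library, as in 19.8% of all genes. In 0 of the 10 did every imiquimod library lie below, as in 18.0% of all genes. The genes were proposed with earlier results of these data known, so these shares describe the 10 genes and test nothing about them. Log2 changes are imiquimod minus vehicle on log2(FPKM + 0.1), a scale that shrinks changes of genes with low values, and they are given ± SE.

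**Figure D1:**
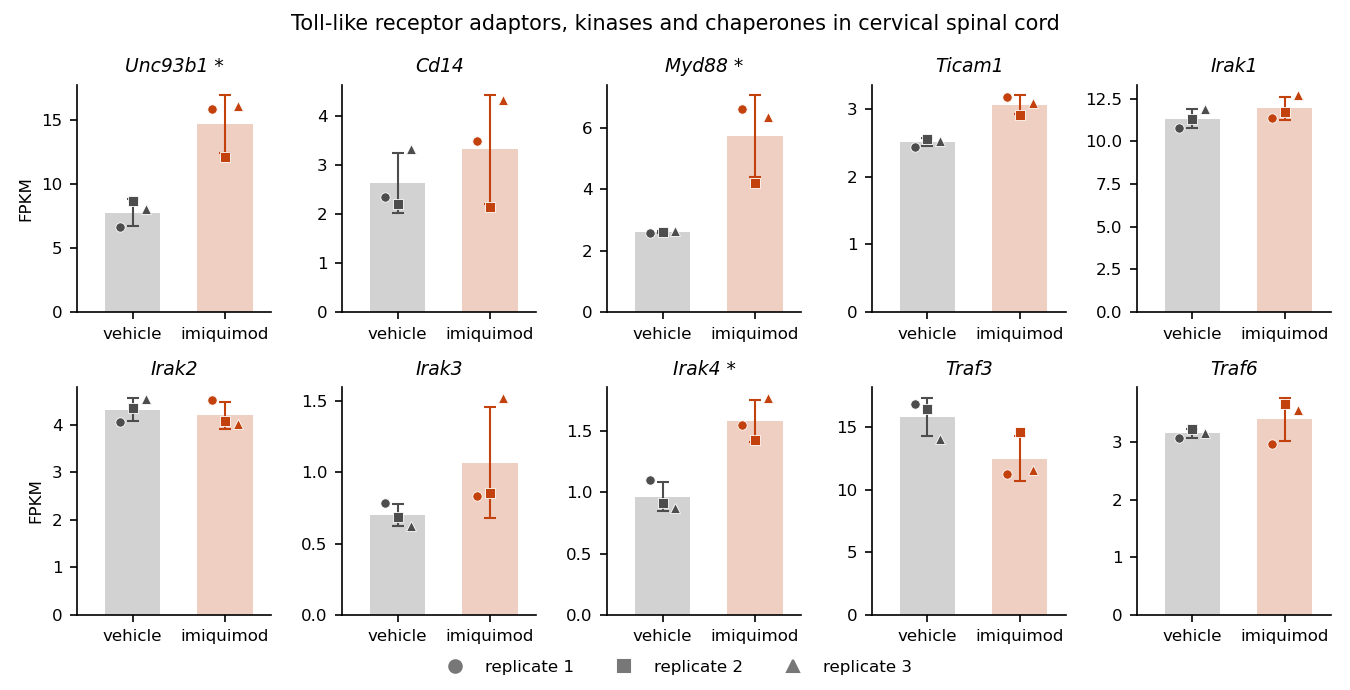
FPKM (vertical axes, each starting at 0) of the 10 genes in 3 vehicle and 3 imiquimod libraries, where bars are group means, whiskers are SD, symbols are single mice by replicate number, and an asterisk marks an adjusted p under 0.05. The 3 imiquimod points lie clear above the 3 vehicle points for Unc93b1, Myd88, Ticam1, Irak3 and Irak4.

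The libraries held 18174419 to 20672894 recovered fragments in vehicle mice and 21242431 to 23200998 in imiquimod mice. Transcripts that define cord tissue were plentiful in vehicle and imiquimod mice, among them those of myelin (Mbp, 3290 against 2280 FPKM), synapses (Snap25, 315 against 263 FPKM) and astrocytes (Aqp4, 140 against 104 FPKM). For Mbp, Snap25 and Aqp4 every imiquimod library lay below every vehicle library. Gfap, the astrocyte marker with the highest level, stood at 573 against 675 FPKM, with every imiquimod library above every vehicle library. None of these markers passed the test, but others of the same lists did. Lower by log2 change were 2 of 10 neuronal (Rbfox3, -0.37, and Chat, -0.62), 1 of 8 oligodendrocyte (Opalin, -0.63) and 2 of 8 astrocyte markers (Gja1, -1.10, and Slc1a2, -0.70), and 1 astrocyte marker was higher (Aldh1l1, 0.76). The posterior genes Hoxc10 and Hoxd10 were listed at 0 in all 6 libraries. Hoxc8, whose expression starts in the lower cervical segments, set libraries apart: it stood at 16.9, 16.6 and 15.0 FPKM in vehicle replicates 1 to 3 and at 1.52, 11.9 and 1.63 FPKM in imiquimod replicates 1 to 3. Its log2 change was -2.33 ± 0.72 (adjusted p = 0.0757). Of 7 tested genes of cord level 1 passed, Hoxb8, in the other direction (84.7 against 123 FPKM, log2 change 0.54 ± 0.09, adjusted p = 0.0116). Hoxa5 (0.04 ± 0.11) and Hoxb5 (0.14 ± 0.14) did not pass. Hoxc4 (-0.11 ± 0.10), Hoxc5 (-0.38 ± 0.11) and Hoxc6 (-0.37 ± 0.14) had log2 changes below 0, as Hoxc8 had, and did not pass either. Gapdh was listed at 26.4 FPKM in imiquimod replicate 3 and at 1.56 to 2.15 FPKM elsewhere. Whether the cord level or this library bears on the results below was not tested. The changes of the 10 genes and the counts over all genes were recomputed without each library in turn, and the other lists, ratios and marker sums were not.

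Unc93b1 (chr19:3935186-3949340 on GRCm38, plus strand) encodes the membrane chaperone of the endosomal receptors. It stood at 6.62, 8.68 and 8.06 FPKM in vehicle replicates 1 to 3 and at 15.9, 12.1 and 16.1 FPKM in imiquimod replicates 1 to 3. Every imiquimod mouse was above every vehicle mouse, and imiquimod replicate 2 was the lowest of its group. The means were 7.79 ± 1.06 and 14.7 ± 2.23 FPKM (SD, n = 3 each), a ratio of 1.89. This is a log2 change of 0.91 ± 0.14 (adjusted p = 0.00986), on 355 to 1145 fragments per library. The call held in all 17 alternative settings, among them each library left out in turn (log2 change 0.80 to 1.04, adjusted p 0.00393 to 0.039).

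Tlr3, Tlr7, Tlr9 and Tlr13, receptors that Unc93b1 carries, were also called higher. Tlr7 was 0.976 ± 0.249 against 3.2 ± 0.827 FPKM, a log2 change of 1.61 ± 0.24 (adjusted p = 0.00855). Per library, the FPKM of Unc93b1 was 9.57, 8.01 and 7.00 times that of Tlr7 in vehicle mice and 5.07, 5.06 and 3.97 times in imiquimod mice. All 3 imiquimod ratios lay below all 3 vehicle ratios. The ratio to Tlr9, a receptor for DNA, was 13.4 ± 0.744 against 8.27 ± 2.59, and that to Tlr13, a receptor for bacterial ribosomal RNA, was 9.56 ± 2.06 against 4.81 ± 0.992, again without overlap. The ratio to Tlr3, a receptor for double-stranded RNA, overlapped between groups (1.70 ± 0.174 against 1.93 ± 0.234). These ratios were chosen after the values were seen and were not tested.

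Cd14, on the cell surface, hands lipopolysaccharide to Tlr4 and helps it into endosomes. It stood at 2.34, 2.20 and 3.32 FPKM in vehicle mice and at 3.49, 2.13 and 4.31 FPKM in imiquimod mice. The groups overlapped, since imiquimod replicate 2 had the lowest value of all 6 libraries while the other imiquimod libraries had the highest. The log2 change was 0.30 ± 0.27 with a 95% interval from -0.34 to 0.93 (adjusted p = 0.501), which spans a fall as well as a rise of nearly 1. Without imiquimod replicate 2 the log2 change was 0.57 (adjusted p = 0.104), and without imiquimod replicate 3 it was 0.08 (adjusted p = 0.864). Tlr4 itself, at 0.352 ± 0.0493 against 0.749 ± 0.168 FPKM, missed the threshold (log2 change 0.90 ± 0.27, adjusted p = 0.0676).

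Myd88 (chr9:119335934-119341411, minus strand) had the largest log2 change of the 10 genes. It stood at 2.59, 2.61 and 2.66 FPKM in vehicle mice and at 6.63, 4.20 and 6.37 FPKM in imiquimod mice. The vehicle mice were nearly identical, whereas imiquimod replicate 2 lay between them and the other imiquimod mice. The means were 2.62 ± 0.0364 and 5.73 ± 1.33 FPKM (SD, n = 3 each), a ratio of 2.19. On the log2 scale Myd88 rose by 1.07 ± 0.17 (adjusted p = 0.01), on 117 to 385 fragments per library. The call held in all 17 alternative settings (log2 change 0.87 to 1.28, adjusted p 0.00123 to 0.0446), and the largest p came without vehicle replicate 1.

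Ticam1 (chr17:56269319-56276786, minus strand), the adaptor of the other arm, had nearly the same vehicle level as Myd88 and did not pass. It stood at 2.44, 2.56 and 2.53 FPKM in vehicle mice and at 3.18, 2.91 and 3.09 FPKM in imiquimod mice. The groups did not overlap, but the log2 change was 0.28 ± 0.08 (adjusted p = 0.07), and it passed in none of the 17 alternatives (0.068 to 0.216). The FPKM of Myd88 was 1.06, 1.02 and 1.05 times that of Ticam1 in vehicle mice, and 2.09, 1.44 and 2.06 times in imiquimod mice. This ratio, chosen after the values were seen and not tested, was thus close to 1 in every vehicle library and above it in every imiquimod library.

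Promoter windows from RefSeq (GRCm38.p6), each of 250 bases before and 50 after a transcription start, were held for 8 of the 10 genes, not for Unc93b1 and Cd14. The windows were searched on both strands for the interferon-stimulated response element GAAANNGAAA, the gamma-activated site TTCNNNGAA and the NF-kB motif. Of the 8 genes, 1 held the first motif (Myd88), 1 the second (Myd88) and 1 the third (Traf3, from 10 to 1 bases before the start). Of 27025 genes with a window, 3.99%, 9.55% and 5.14% held them, and of all 32851 windows of that length, 3.44%, 8.30% and 4.51%. The 250 bases before the start are shown for the adaptor that was called, Myd88, for the kinase that was called, Irak4, and for the adaptor that was not, Ticam1. They are written 5′ to 3′ along the gene, with motif matches in capitals. In Myd88 (chr9:119340019-119340268, minus strand) the capitals run from 46 to 31 bases before the start and hold TTCTCGGAA and GAAAGCGAAA, which share 3 bases. In Irak4 (chr15:94543410-94543659, plus strand) and Ticam1 (chr17:56276768-56277017, minus strand) no match lies in the window. These starts are those of RefSeq, and the GENCODE models of Myd88, Irak4 and Ticam1 reach farther in the 5′ direction. The models of Irak4 and Ticam1 begin within the bases shown, and that of Myd88 begins before them. A match of letters is a description of the window, and absence says only that these letters are not in it.
Myd88: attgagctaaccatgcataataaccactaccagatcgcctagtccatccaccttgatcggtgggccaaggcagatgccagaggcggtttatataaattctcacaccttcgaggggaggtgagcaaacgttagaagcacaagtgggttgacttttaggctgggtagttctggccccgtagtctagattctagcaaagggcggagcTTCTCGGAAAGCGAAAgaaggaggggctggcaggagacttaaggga
Irak4: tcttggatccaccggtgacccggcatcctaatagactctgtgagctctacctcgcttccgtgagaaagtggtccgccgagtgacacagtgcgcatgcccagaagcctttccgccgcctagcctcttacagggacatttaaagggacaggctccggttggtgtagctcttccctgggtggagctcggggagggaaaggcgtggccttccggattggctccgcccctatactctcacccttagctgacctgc
Ticam1: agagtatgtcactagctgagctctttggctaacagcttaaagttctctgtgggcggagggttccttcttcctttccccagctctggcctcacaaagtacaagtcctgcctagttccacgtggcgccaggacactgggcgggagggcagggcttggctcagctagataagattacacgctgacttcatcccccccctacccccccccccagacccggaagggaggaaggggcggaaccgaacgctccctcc

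Of the 4 IRAK kinases, 1 passed. Irak4 (chr15:94543643-94581815, plus strand), the kinase that Myd88 recruits first, stood at 1.10, 0.916 and 0.876 FPKM in vehicle mice and at 1.55, 1.43 and 1.77 FPKM in imiquimod mice. The groups did not overlap. The means were 0.965 ± 0.121 and 1.58 ± 0.169 FPKM, and the log2 change was 0.66 ± 0.15 (adjusted p = 0.0334), on 80 to 208 fragments per library. The call was lost when any 1 library other than imiquimod replicate 2 was left out. The adjusted p was then 0.0633, 0.106 and 0.108 without vehicle replicates 1, 2 and 3, and 0.0726 and 0.0956 without imiquimod replicates 1 and 3. It was also lost with no filter on low values (adjusted p = 0.0733), while its log2 change ran from 0.39, with a pseudocount of 1, to 0.75 over the 17 alternatives.

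Irak1 (chrX:74013914-74023918, minus strand), the kinase that Irak4 activates, was the most abundant IRAK and hardly differed. It stood at 10.8, 11.3 and 11.9 FPKM in vehicle mice and at 11.4, 11.7 and 12.7 FPKM in imiquimod mice, with overlap. The log2 change was 0.08 ± 0.07 with a 95% interval from -0.09 to 0.24 (adjusted p = 0.509). The FPKM of Irak4 as a share of that of Irak1 was 0.0857 ± 0.0147 in vehicle and 0.132 ± 0.00839 in imiquimod mice, with no overlap, a ratio also chosen after the values were seen and not tested.

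Irak2 (chr6:113638467-113695026, plus strand), a kinase relative that sustains the signal, stood at 4.06, 4.35 and 4.55 FPKM in vehicle mice and at 4.53, 4.08 and 4.01 FPKM in imiquimod mice. Its groups overlapped over nearly their whole range, and the log2 change was -0.04 ± 0.09 with a 95% interval from -0.24 to 0.16 (adjusted p = 0.795). For Irak1 and Irak2 these intervals leave out changes as large as those of Myd88 and Unc93b1.

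Irak3 (chr10:120141648-120202130, minus strand), also called IRAK-M, is the member of the family known as a brake and is best known from macrophages. It was the lowest of the 10 genes, at 0.784, 0.688 and 0.626 FPKM in vehicle mice and at 0.831, 0.852 and 1.52 FPKM in imiquimod mice. The groups did not overlap, but 2 imiquimod libraries lay just above the highest vehicle library and replicate 3 stood apart from them. The log2 change was 0.50 ± 0.26 with a 95% interval from -0.11 to 1.11 (adjusted p = 0.241), on 44 to 131 fragments per library. Without imiquimod replicate 3 it was 0.24 (adjusted p = 0.498), less by over 1.5 times.

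Neither TRAF ligase passed. Traf6 (chr2:101678429-101701669, plus strand), which builds the ubiquitin chains of the NF-kB arm, stood at 3.07, 3.22 and 3.16 FPKM in vehicle mice and at 2.97, 3.66 and 3.55 FPKM in imiquimod mice. Imiquimod replicate 1 was the lowest of all and the other imiquimod mice the highest. Its log2 change was 0.10 ± 0.10 with a 95% interval from -0.14 to 0.34 (adjusted p = 0.545).

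Traf3 (chr12:111166370-111267153, plus strand), which serves the interferon arm and restrains the non-canonical NF-kB pathway, was the most abundant of the 10 genes in vehicle cords. It stood at 16.9, 16.5 and 14.1 FPKM there and at 11.3, 14.6 and 11.6 FPKM in imiquimod mice. Imiquimod replicates 1 and 3 lay below all vehicle mice, and replicate 2 lay among them. The log2 change was -0.35 ± 0.12 with a 95% interval from -0.63 to -0.06, and it did not pass over all genes (adjusted p = 0.102). Of the 17 alternatives it passed in 1, without imiquimod replicate 2 (log2 change -0.46, adjusted p = 0.0247). That library also had the Hoxc8 level nearest to the vehicle mice (11.9 FPKM), and what this has to do with Traf3 was not tested.

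**Figure D2:**
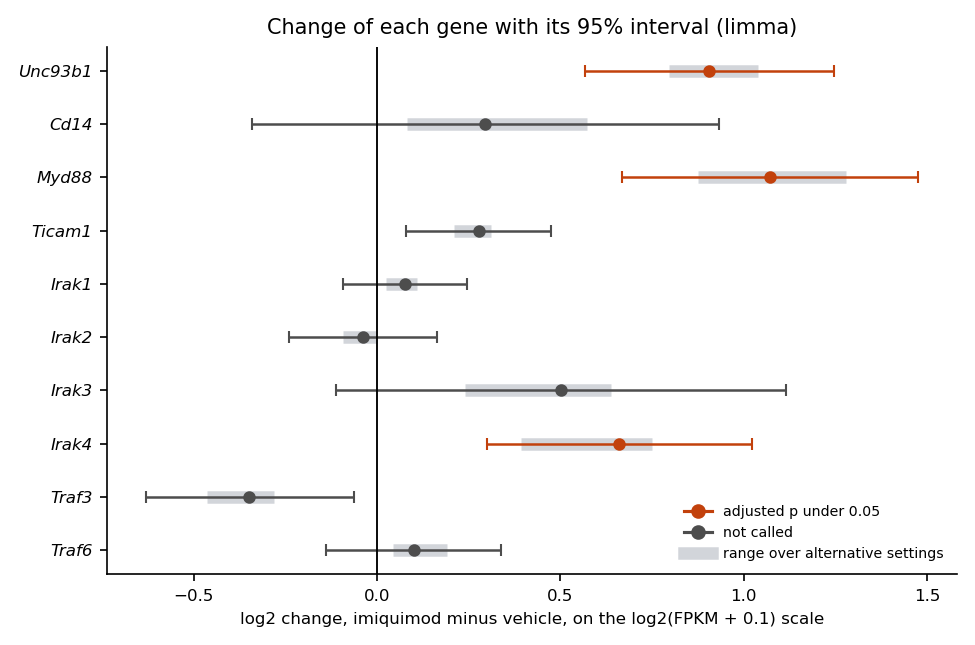
Log2 change of each of the 10 genes (points, imiquimod minus vehicle, 3 mice each) with its 95% interval from limma (whiskers) and the range of the change over 17 alternative settings (grey bars). Myd88, Unc93b1 and Irak4 carry the calls. No grey bar crosses 0, but the 95% intervals of Cd14, Irak1, Irak2, Irak3 and Traf6 do.

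FPKM are scaled per length, so the 10 genes can be ordered by level. In vehicle cords the order from the top was Traf3 (15.8 FPKM), Irak1 (11.3), Unc93b1 (7.79), Irak2 (4.32), Traf6 (3.15), Cd14 (2.62), Myd88 (2.62), Ticam1 (2.51), Irak4 (0.965) and Irak3 (0.699). Neighbours overlapped between Traf6 and Cd14 and between Cd14 and Myd88. In imiquimod cords Unc93b1 (14.7 FPKM) came first, followed by Traf3 (12.5) and Irak1 (12), and these neighbours overlapped. Myd88 (5.73) came next, above Irak2 (4.21), with overlap between them, although Myd88 led in all 3 libraries. Traf6 (3.39), Cd14 (3.31) and Ticam1 (3.06) overlapped in turn, and so did Irak4 (1.58) and Irak3 (1.07). Unc93b1 was thus the third in vehicle and the first in imiquimod cords, Myd88 the seventh and the fourth, and Irak4 and Irak3 came last in each.

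Some exons of these genes are shared with neighbours, and the labels do not state whether strand was used in counting. Myd88 shares 290 bases (11.3% of its exon length) with Acaa1a on the opposite strand, which stood at 19.1 to 19.7 FPKM in vehicle and 21.3 to 24.5 FPKM in imiquimod libraries. Irak4 shares 395 bases (7.87%) with Twf1 on the opposite strand, which stood at 18.2 to 20.1 and 17.6 to 19.5 FPKM. Irak3 shares 192 bases (5.22%) with Tmbim4. Reads of these stretches cannot be assigned from the files. Unc93b1, Ticam1, Cd14, Traf3 and Traf6 share no exon base with another gene model.

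The rest of the pathway was described by lists of 107 further genes, of which 89 were tested. Of these, 34 were called higher and 2 lower, with a median log2 change of 0.36, beside 8.74% and 5.34% called among all genes tested. The lists were written with earlier results of these data known. Of the 89, 9 reached the 0.5 FPKM minimum in imiquimod cords only, and 6 of the 34 called higher are among these, so the filter helped shape the counts and medians. Among all genes tested, 685 passed in that way, and 202 of them were called higher. Of 12 Toll-like receptors 7 were tested and 6 were higher, with a median of 1.60. Tlr1 and Tlr4 were tested only through their imiquimod level, and the 5 receptors under the minimum in each group are not in the count. Among those called, Tlr2, the receptor for lipoproteins, rose by 1.60 ± 0.16, its partner Tlr1 by 1.89 ± 0.30, Tlr13 by 1.78 ± 0.30 and Tlr3 by 0.72 ± 0.11. Of the 6, 4 had a mean under 1 FPKM in vehicle cords (Tlr1, Tlr7, Tlr9 and Tlr13), as had Irak4 and Irak3.

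Of 16 tested genes of receptor folding, trafficking and ligand handling, 6 were higher and 1 lower. Of the 6, 1 reached the filter's minimum in imiquimod cords only. Cd180, a Toll-like surface protein of myeloid and B cells, went from 0.704 ± 0.241 to 4.61 ± 0.809 FPKM (log2 change 2.58 ± 0.24). The endosomal proteases Ctsb and Lgmn, which can cut receptors after delivery, rose by 0.65 ± 0.07 and 0.67 ± 0.08, whereas Ctsk, another cathepsin, fell by 0.73 ± 0.09. Cnpy3, a folding partner of several receptors, rose by 0.27 ± 0.06. Its co-chaperone Hsp90b1 missed the threshold (0.26 ± 0.07, adjusted p = 0.0559), and Tmed7 had -0.04 ± 0.07.

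Among the other adaptors 2 of 8 tested were higher and none lower. They were Pik3ap1 (BCAP), which links the receptors to PI3K, at 1.71 ± 0.28 against 8.57 ± 1.7 FPKM (log2 change 2.25 ± 0.18), and Scimp, a membrane adaptor of immune cells (2.53 ± 0.34), which reached the minimum in imiquimod cords only. The abundant TBK1 adaptors Tbkbp1 (0.00 ± 0.07) and Azi2 (0.14 ± 0.06) did not pass.

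Of 14 tested downstream kinases and their binding proteins, 2 were higher and 1 lower, with a median log2 change of 0.03. Tbk1, the kinase below Traf3 that acts on Irf3, rose by 0.38 ± 0.07, and Map2k3, an activator of p38, by 0.58 ± 0.13. Mapk8, which encodes JNK1, fell by 0.31 ± 0.08. Mapk14 (0.17 ± 0.06) and Tab2 (-0.06 ± 0.06) did not pass. Of 7 tested ubiquitin partners, 1 was higher, Birc3 (cIAP2), at 0.498 ± 0.15 against 1.33 ± 0.406 FPKM. It reached the filter's minimum in imiquimod cords only, so this call follows in part from the filter. The conjugating enzyme Ube2n (-0.18 ± 0.06) and Peli3 (-0.04 ± 0.08) did not pass.

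Of 15 tested brakes of the pathway, 4 were higher and none lower. They were Usp18, which removes ISG15 (3.80 ± 0.54), Nlrc5 (2.37 ± 0.41), Dok1 (0.99 ± 0.24) and Trafd1 (0.93 ± 0.15), while the abundant Tollip, which binds IRAK1, had -0.04 ± 0.05 and Otud5 had 0.19 ± 0.05 without passing. Usp18 and Nlrc5 are also known as interferon-induced genes. Of 2 tested IL-1 family receptors that use Myd88, neither passed: Il1rap had -0.24 ± 0.08 and Il1r1 0.04 ± 0.38.

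At the far end of the pathway, 7 of 12 transcription factors and 6 of 8 tested output genes were higher and none lower. Irf7, which Myd88 and Irak complexes activate below Tlr7, went from 11 ± 8.85 to 199 ± 32.4 FPKM (log2 change 4.49 ± 0.56). Irf8 (1.82 ± 0.09) and Irf5 (1.62 ± 0.19) were higher by less, and the NF-kB subunit genes Nfkb2 (0.75 ± 0.17) and Nfkb1 (0.39 ± 0.09) by less again. Jun had -0.08 ± 0.07, Rela 0.31 ± 0.10 and Fos 0.625 ± 0.28, all without passing. Of the output genes, Cxcl10 rose by 4.18 ± 0.19, Isg15 by 4.08 ± 0.32, Ifit1 by 3.91 ± 0.35, Ccl2 by 3.58 ± 0.47 and Icam1 by 1.71 ± 0.25. The NF-kB feedback genes Nfkbia (0.52 ± 0.16) and Nfkbiz (0.54 ± 0.23) did not pass. The log2 changes of the 10 adaptors, kinases and chaperones thus lay within -0.35 to 1.07. Those of the 7 tested receptors lay between 0.72 and 1.89, and those of the 8 tested output genes between 0.52 and 4.18. Of these receptors 2 (Tlr1 and Tlr4) reached the filter's minimum in imiquimod cords only. So did 2 of the output genes, Ccl2 among them, and both were called higher. These ranges and counts follow in part from the filter.

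**Figure D3:**
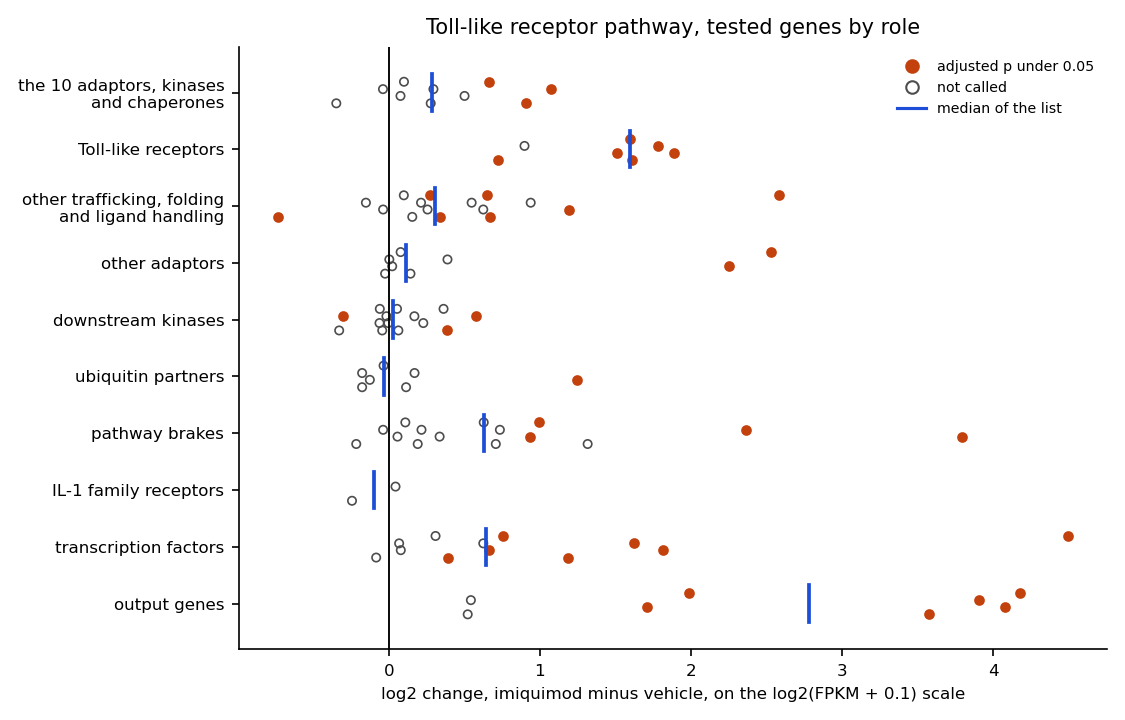
Log2 change (horizontal axis) of every tested gene of the pathway, grouped by role, with called genes as filled points, others as open points and list medians as blue bars. The medians are 0.29 for the 10 adaptors, kinases and chaperones, 1.60 for the receptors, 0.03 for the downstream kinases and 2.78 for the output genes.

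The genes whose profile over the 6 libraries was most like that of each called gene were found by the root mean square difference between centred log2 values, a measure of likeness with no test. Nearest to Unc93b1 were Ppp1r18 (0.052), Rnf31 (0.053), which encodes the catalytic subunit of the linear ubiquitin chain complex, and Plin2 (0.055), a lipid droplet protein gene. Nearest to Myd88 were Lag3 (0.041), Ccdc88b (0.060) and the ferritin pseudogene Ftl1-ps1 (0.061), whose reads can be shared with its parent gene. Nearest to Irak4 were Plod3 (0.074), Car12 (0.075), itself not called (limma adjusted p = 0.0618), and Fam69c (0.076). Many genes were about as near in some cases. Within double the smallest difference lay 118 genes for Irak4, 37 for Unc93b1 and 4 for Myd88.

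Imiquimod replicate 2 was the lowest imiquimod library for 5 of the 10 genes, Unc93b1, Cd14, Myd88, Ticam1 and Irak4. Replicate 1 was the lowest for 4 and replicate 3 for 1, and the shares over all genes were not computed. Among the imiquimod libraries, the marker sums of monocytes, of T and NK cells and of border macrophages were also lowest in replicate 2. Those of homeostatic microglia and neutrophils were highest there. Monocyte markers, of which 5 of 9 tested were higher and none lower, summed to 13.1 to 26.7 FPKM in vehicle libraries and to 75.5, 35.6 and 105 FPKM in imiquimod replicates 1 to 3. T and NK cell markers, of which 5 of 7 were higher and none lower, summed to 3.95 to 5.42 and to 27.1, 16.2 and 26.6 FPKM. Of those 5, 4 (Trbc1, Klrb1c, Ncr1 and Gzmb) reached the filter's minimum in imiquimod cords only, as did 2 of the 9 monocyte markers, so these counts follow in part from the filter. The sums use every listed marker. Homeostatic microglia markers went both ways (3 of 12 higher, 1 lower) and summed to 121 to 134 FPKM in vehicle and 135 to 176 FPKM in imiquimod libraries, with the highest sum in replicate 2. Border macrophage markers (1 of 8 higher, 3 lower) summed to 10.2 to 15.5 and 4.79 to 15.1 FPKM. The marker called higher there, Ms4a7, reached the filter's minimum in imiquimod cords only. Of the 3 called lower, 2 reached it in vehicle cords only, so these counts follow in part from the filter too. Neutrophil markers (1 of 6 higher, none lower) summed to 21.6 to 81.3 and 23.7 to 34.3 FPKM. Endothelial markers (4 of 7 higher, 1 lower) summed to 76.9 to 80.6 and 134 to 145 FPKM. No marker of these 6 lists was at 0 in all libraries. Summed markers of neurons (1510 to 1620 against 1110 to 1440 FPKM) and oligodendrocytes (7950 to 8500 against 5200 to 6750 FPKM) were below the vehicle range in every imiquimod library. The part of any of these cell types in the levels of Myd88, Unc93b1 and Irak4 was not tested.

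**Figure D4:**
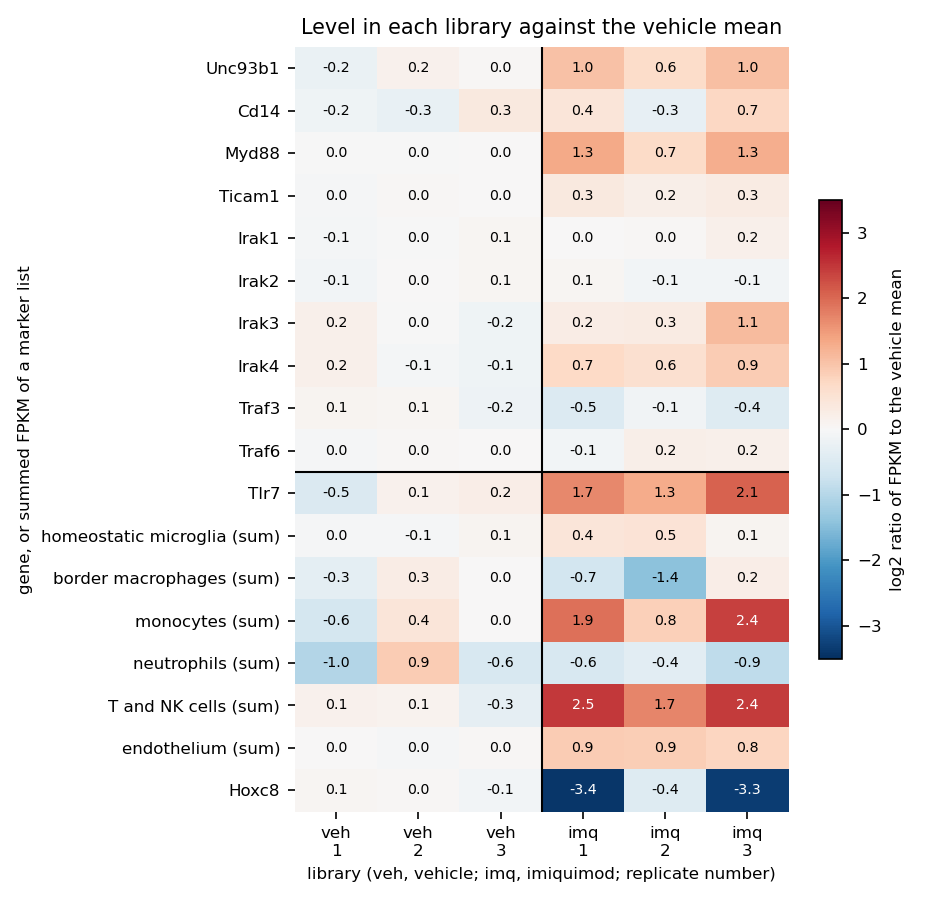
Log2 ratio of FPKM to the vehicle mean in each of the 6 libraries (columns) for the 10 genes, Tlr7, the summed FPKM of 6 marker lists and Hoxc8 (rows). Among imiquimod libraries, replicate 2 has the smaller ratios for Myd88 (0.68 against 1.34 and 1.28), Unc93b1 (0.64 against 1.03 and 1.05) and monocyte markers (0.84 against 1.92 and 2.40). For homeostatic microglia markers replicate 2 has the larger ratio (0.49 against 0.42 and 0.10).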

How the data were processed

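RNA sequencing values of 3 vehicle and 3 imiquimod libraries were compared once. The deposited files hold FPKM, 1 value per gene and library. HISAT2 2.0.5, featureCounts 1.5.0-p3, DESeq2 1.16.1 and mm10 are named in the submitters' processing notes, without roles; for annotation release, strand and multi-mapping rules the entry is: not given in the sources used here. Symbols were matched for 54409 of 54532 identifiers. Exon lengths and coordinates came from GENCODE M21 (GRCm38). Multiplied by exon length, FPKM of genes under 1000 fragments were whole multiples of a library's unit step (tolerance 0.05) for 97.4% to 97.6% of values, and fragments were recovered this way. The unit steps imply library totals of 17387042 to 19557377 in vehicle and 20620446 to 23466220 in imiquimod mice. These totals differ from the sums of recovered fragments, and the voom fits used them as library sizes.

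limma 3.58.1 (R 4.3.3) with a mean-variance trend was fitted to log2(FPKM + 0.1) for genes with a mean of at least 0.5 FPKM in either group. The p-values were adjusted by Benjamini-Hochberg over all genes. The fit was also run on simulated fragments with the same dispersion for all genes and both groups. That setting does not copy the spread between these mice, so the run does not measure how reliable the calls are. All 10 genes were above 0.5 FPKM in vehicle cords. Tables and figures used Python 3.11.15 with matplotlib 3.10.9, SciPy 1.17.1, NumPy 2.4.6 and pandas 2.3.3. The 10 genes, the lists and the rules were chosen with earlier results of these data known. All 10 were named. Of other lists, up to 5 called genes with the smallest p and up to 2 uncalled ones with the highest level were named. Rela and Fos, close in level, were both named beside Jun. The 17 alternatives changed the pseudocount (0.01, 1), the filter, the scaling, the weights, the model (voom on fragments), the replicate block, or left out 1 library.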

Additional observations from a re-analysis of the deposited data

How the results depend on the processing

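Unc93b1 and Myd88 were called higher in all 17 alternatives and Irak4 in 10. All 10 genes kept the sign of their log2 change in every alternative, with Irak2 as near to 0 as -0.001. The alternatives reuse the same libraries, so a kept sign does not settle a direction. In the main fit the 95% intervals of Cd14, Irak1, Irak2, Irak3 and Traf6 spanned 0. The number of the 10 genes called ran from 2 to 4 when 1 library was left out, from 3 with all libraries. Over all genes, 2326 were called, 1444 higher and 882 lower. Leaving out 1 library gave 847 to 2986 calls, 660 to 1690 higher and 187 to 1296 lower, with fewest without vehicle replicate 1 and most without imiquimod replicate 2. Without a filter on level, 508 genes were lower. Quantile normalization gave 1335 higher and 1287 lower.

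With a replicate block 1330 genes were called, 894 higher and 436 lower, and 2 of the 10 genes, since Irak4 did not pass (adjusted p = 0.0853). Deviations of same-numbered libraries from their group means correlated by 0.02, -0.10 and -0.03 across genes. Those of unlike-numbered libraries correlated by -0.102 to 0.134. Correlations of expression cannot show whether same-numbered mice shared a litter, day or cage, and the labels do not say. Irak3 had the fewest fragments per library of the 10 genes, 44 to 131, and whether that number bears on its call was not tested.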

Other observations

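Several relatives of these genes had a mean under 0.5 FPKM in each group and were not tested. Ticam2, the bridging adaptor between Tlr4 and Ticam1, had a mean of 0.11 ± 0.0427 FPKM with vehicle and 0.186 ± 0.0517 FPKM with imiquimod (± SD over 3 mice). Ikbke, the kinase related to Tbk1, stood at 0.243 ± 0.0213 against 0.407 ± 0.157 FPKM. Traf1 stood at 0.276 ± 0.0503 against 0.46 ± 0.138 FPKM and Traf5 at 0.266 ± 0.0525 against 0.373 ± 0.00903 FPKM. Tlr8 stood at 0.093 ± 0.0438 against 0.376 ± 0.35 FPKM.

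Hgs, an endosomal sorting gene listed among the trafficking genes, was listed at 0 in 5 libraries and at 0.0172 FPKM in vehicle replicate 3. GENCODE M21 gives it a pair of gene models over the same exons. How reads over shared exons were counted was not tested.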
